A study of Mus musculus with 8 samples.

Results

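The genes described here are named for the translation initiation and elongation factors. These proteins start protein synthesis on a messenger RNA (mRNA) and move the ribosome along it. Most of the genes code for such factors, and some for proteins that act on them, such as kinases and methyltransferases. The set was taken as every gene with annotated exons in the deposited table whose symbol begins with Eif or Eef and whose exon counts sum to at least 40 over the 8 libraries. This gave 62 genes of 21477 with exons in the table, of which 10448 reach the same minimum. The last genes inside it were Eif2ak4, Eif4ebp3 and Eif2b3 with 46, 44 and 42 counts, and 4 genes lay outside, among them Eef1a2 with 33, Eif4e3 with 20 and Eef1e1 with 14.

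The libraries hold small RNA from spermatozoa of C57BL/6J mice, 4 in the group EtOH-Cessation and 4 in the group Control-Cessation. By the title of the series, cessation stands for one month off alcohol, so both groups were sampled at a stage without treatment, the EtOH group after alcohol and the Control group after the control treatment. The labels name every sample mature sperm, whereas the series' design text mentions the caput, the head of the epididymis where sperm begin to mature. Dose, route, age and whether a library is 1 animal or a pool are not stated in the labels, and the p-values therefore measure only how far these libraries spread, which may be technical.

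Initiation factors bring the small ribosomal subunit and the initiator transfer RNA to the capped end of an mRNA and find the start codon. Elongation factors then deliver each aminoacyl transfer RNA (eEF1A, recharged by eEF1B) and shift the ribosome by a codon (eEF2). Mature sperm carry little cytosolic translation, and in a small RNA library the counts of an exon are short fragments of its transcript, so every level below is a level of fragments and not of intact mRNA or protein. Less RNA per cell and fewer cells of a type cannot be told apart in such bulk samples.

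Fragments of translation factor exons were more abundant in the EtOH libraries than in the Control libraries. Summed over the 62 genes and scaled to library totals corrected by the trimmed mean of M values (scaled CPM), they reached 897, 2747, 726 and 1070 CPM in EtOH replicates 1 to 4, against 435, 600, 502 and 583 CPM in Control replicates 1 to 4. The groups did not overlap, and EtOH replicate 2 lay far above the other EtOH libraries. The means were 1360 ± 935 CPM in EtOH and 530 ± 76.6 CPM in Control (SD, n = 4 each), a ratio of 2.57, and without EtOH replicate 2 the EtOH mean was 898 ± 172 CPM (SD, n = 3), a ratio of 1.69. The mean was higher in EtOH for 60 of the 62 genes. Counts over the 62 genes depend in part on how the genes were chosen. The count minimum was set on the sum of both groups, so a gene could reach it mainly through its EtOH counts. The share of all genes at that minimum with a higher EtOH mean is not given, so the 60 cannot be set beside a background.

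**Figure D1:**
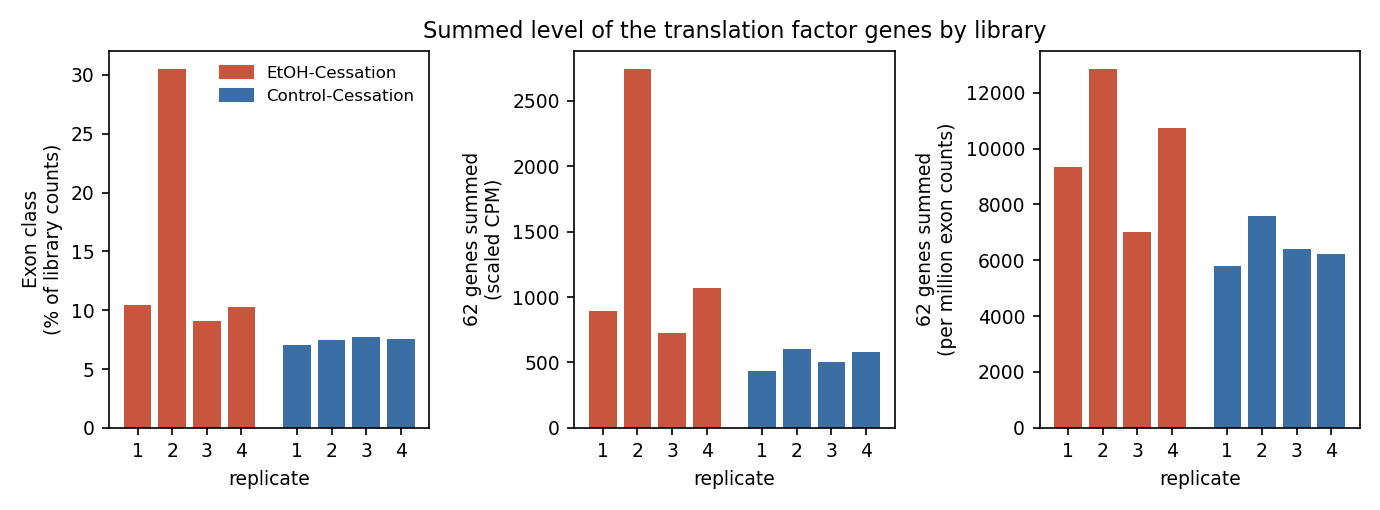
The left panel plots the exon class as a percentage of each library's counts, the middle panel the 62 translation factor genes summed in scaled CPM, and the right panel the same genes in CPM of the exon counts, with each bar a library and EtOH-Cessation drawn left of Control-Cessation. EtOH replicate 2 stands apart in the left and middle panels, with 30.5% exon counts and 2747 CPM, and the right panel narrows the gap to 7005 in the lowest EtOH library and 7602 in the highest Control library, so that the groups overlap.

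Depth and library makeup moved with this difference. Library totals ranged from 3116421 to 6805989 counts in EtOH, with replicate 2 the shallowest, and from 4210785 to 4768713 in Control. Exon fragments as a class took 10.4%, 30.5%, 9.08% and 10.3% of the counts in EtOH replicates 1 to 4, against 7.07%, 7.44%, 7.73% and 7.57% in Control replicates 1 to 4. Scaled instead to the exon class of each library, the translation factor genes averaged 9995 ± 2460 CPM of exon counts in EtOH and 6507 ± 773 in Control (SD, n = 4 each), a ratio of 1.54, with 1 EtOH library (replicate 3, 7005) below the highest Control library (7602). All 12 epididymal epithelium markers had counts in both groups, and their summed level spanned 835 to 12796 CPM in EtOH and 394 to 614 CPM in Control. All 5 general epithelium markers also had counts in both groups, with sums of 78.9 to 578 CPM in EtOH and 27.8 to 61.3 CPM in Control, and 4 genes of each of these lists rose (Crisp1, Adam7, Cd52 and Spink5; Krt8, Krt18, Krt19 and Epcam). DESeq2 called Crisp1 and Aqp9 of the epididymal list and Krt8, Krt18, Krt19 and Cdh1 of the general epithelium list higher, and gave no adjusted p for Adam7, Cd52, Spink5 and Epcam. The 11 late germ cell markers summed to 204 to 468 CPM in EtOH and 464 to 567 CPM in Control, with no call in edgeR, 2 genes lower at an unadjusted p under 0.05 and 2 lower in DESeq2. Leukocyte markers (7 genes) summed to 6.87 to 17.5 CPM in EtOH and 9.01 to 20.4 CPM in Control, and smooth muscle and stroma markers (6 genes) to 22.3 to 69.3 CPM in EtOH and 49.7 to 119 CPM in Control, with no call in edgeR in either list, 1 stromal gene lower at an unadjusted p under 0.05 and 1 lower in DESeq2. The 5 red blood cell markers summed to 1.84 to 17.1 CPM in EtOH and 16.6 to 34.5 CPM in Control, and 2 of them (Hba-a1 and Hba-a2) fell in edgeR, while DESeq2 called 4 lower (Hba-a1, Hba-a2, Hbb-bs and Hbb-bt). The part of these markers and of the exon share in the translation factor result was not tested.

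Of the 62 genes, 46 passed the filter on low counts and were tested in a quasi-likelihood fit over all 13808 features of the table, and the 16 others had 42 to 159 counts in all. Of the 46, 7 rose in EtOH at an adjusted p below 0.05 and none fell, in edgeR or in DESeq2. Those that rose were the eIF3 subunits Eif3f, Eif3h, Eif3i and Eif3c, the elongation factors Eef1a1 and Eef2, and the exchange factor subunit Eef1b2. They are 15.2% of the tested genes, and over the exon sums of all 6424 genes tested 9.82% rose and 0.218% fell. At an unadjusted p under 0.05, 34 of the 46 (73.9%) were higher and 0 lower, against 45.2% of all exon sums higher and 1.77% lower. On the log2 scale the median fold change was 1.26 for the 46 genes, beside 0.86 for all exon sums. Of the 46, 45 lay above 0, as did 5203 of the 6424 exon sums of all genes. In 23 of the 46 (50%) every EtOH library exceeded every Control library and in none did every EtOH library lie below, against 25.5% and 1.9% of all exon sums, and without EtOH replicate 2 the count was 24, against 25.7%.

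The count of 7 lies at the edge of its threshold. All 7 genes share the adjusted p of 0.0489 with 629 features in all, since the Benjamini-Hochberg step gives neighbouring ranks a common value. DESeq2 called 24 genes higher, all 7 among them, with 29.8% of all exon sums called higher in the same fit, while scaling by median of ratios or by library size alone left 0. Leaving out EtOH replicate 2 left 3 calls (Eif3f, Eif3h and Eif3i), with 3.72% of all exon sums called higher. Leaving out EtOH replicate 3 gave 27, the 7 included, with 32.6% of all exon sums called higher, and leaving out any other library (EtOH replicates 1 and 4, and each Control library) left 0, with the median log2 fold change between 0.77 and 1.40 throughout. Sample codes in the labels take the form PO_M21 for EtOH replicates 1 and 2 and PO_EM for EtOH replicates 3 and 4, and the labels do not say what the codes stand for. With the PO_M21 pair alone against the 4 Control libraries the median was 1.57 and 27 genes were called, beside 29.1% of all exon sums called higher, and with the PO_EM pair alone it was 0.75 and 0 were called.

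**Figure D2:**
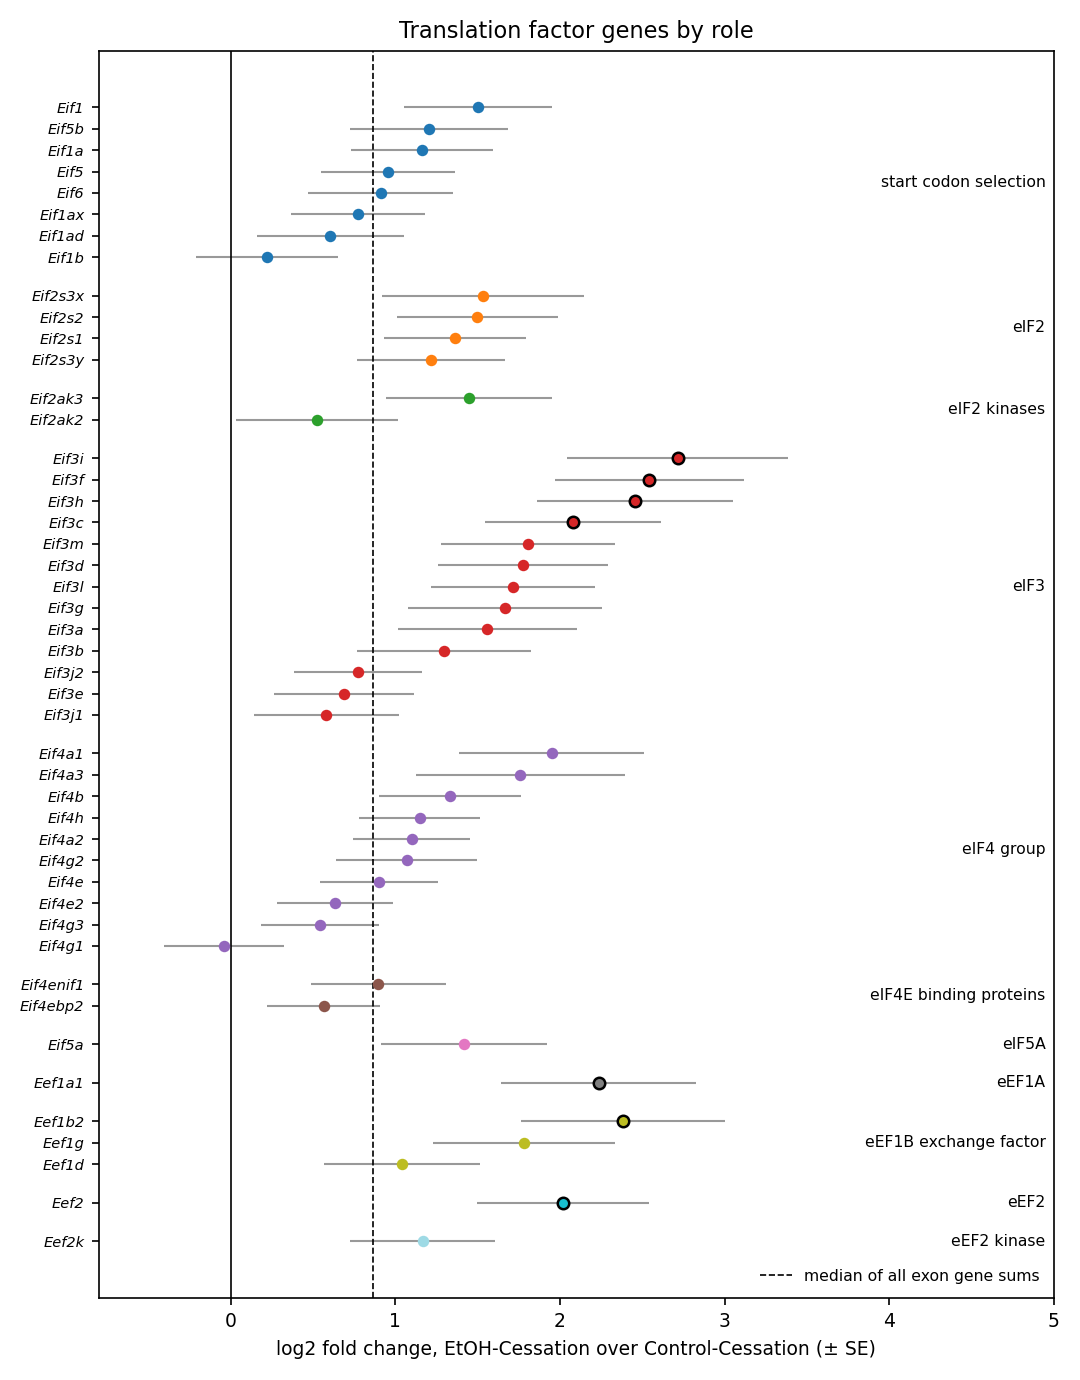
Each point is the log2 fold change (EtOH-Cessation over Control-Cessation) of 1 of the 46 tested genes, grouped by role, with a bar of 1 SE on either side; black rings mark the 7 genes past the adjusted threshold, and the dashed line is the median of all exon gene sums (0.86). The ringed genes lie between 2.02 and 2.72 in eIF3, eEF1A, eEF1B and eEF2, while Eif4g1 lies at -0.04.

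Eef1a1 codes for the main eEF1A, the elongation factor that carries aminoacyl transfer RNA to the ribosome. Its exon sum was 191, 784, 112 and 208 CPM in EtOH replicates 1 to 4, against 47.7, 87.2, 62.4 and 77.4 CPM in Control replicates 1 to 4. The lowest EtOH library, replicate 3, was above the highest Control library, replicate 2, and EtOH replicate 2 held several times the level of the other EtOH libraries. The means were 324 ± 310 CPM in EtOH and 68.7 ± 17.3 CPM in Control (SD, n = 4 each), the log2 fold change was 2.24 (SE 0.59, adjusted p = 0.0489), and without EtOH replicate 2 the EtOH mean was 170 ± 51.6 CPM (SD, n = 3), 2.48 times the Control mean. Eef1a1 has many processed pseudogenes and no source used here gives the rule for reads with several matches, so its count may include or lack reads shared with them. Eef1a2, the form of muscle and neurons, had only 33 counts in all.

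Eef2 codes for the translocase that shifts the ribosome along the mRNA. It had 142, 509, 109 and 206 CPM in EtOH replicates 1 to 4, against 42.6, 72.3, 55.6 and 67.3 CPM in Control replicates 1 to 4. The order of the EtOH libraries was the one seen for Eef1a1, with no overlap between groups. The means were 241 ± 183 CPM in EtOH and 59.5 ± 13.2 CPM in Control (SD, n = 4 each), with a log2 fold change of 2.02 (SE 0.52, adjusted p = 0.0489). Eef2k, the kinase that phosphorylates and inactivates eEF2, had 10.1 ± 4.79 CPM in EtOH and 4.47 ± 1.6 CPM in Control (SD, n = 4 each) and did not pass (log2 fold change 1.17, adjusted p = 0.104). Among the other Eef genes, Eef2kmt, a lysine methyltransferase of eEF2, averaged 3.87 ± 3.1 CPM in EtOH and 1.37 ± 0.367 CPM in Control (SD, n = 4 each) without being tested. Eefsec, which delivers the selenocysteine transfer RNA, averaged 1.96 ± 1.62 CPM in EtOH and 0.991 ± 0.366 CPM in Control (SD, n = 4 each), likewise untested, as was Eef1akmt1, a methyltransferase of eEF1A.

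The eEF1B complex exchanges the GDP on eEF1A for GTP. Its nucleotide exchange subunit Eef1b2 had 15.5, 58.1, 7.88 and 9.31 CPM in EtOH replicates 1 to 4, against 2.68, 4.03, 5.61 and 4.92 CPM in Control replicates 1 to 4. EtOH replicate 2 was again highest, and the lowest EtOH library (replicate 3) exceeded the highest Control library (replicate 3). The log2 fold change of Eef1b2 was 2.38 (SE 0.62, adjusted p = 0.0489). The anchoring subunit Eef1g, at 21.2 ± 16.1 CPM in EtOH and 6.12 ± 3.12 CPM in Control (SD, n = 4 each), did not overlap between groups but missed the threshold (log2 fold change 1.78, adjusted p = 0.063). The second exchange subunit Eef1d, at 8.27 ± 5.88 CPM in EtOH and 3.96 ± 1.4 CPM in Control (SD, n = 4 each), overlapped (log2 fold change 1.04, adjusted p = 0.164).

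**Figure D3:**
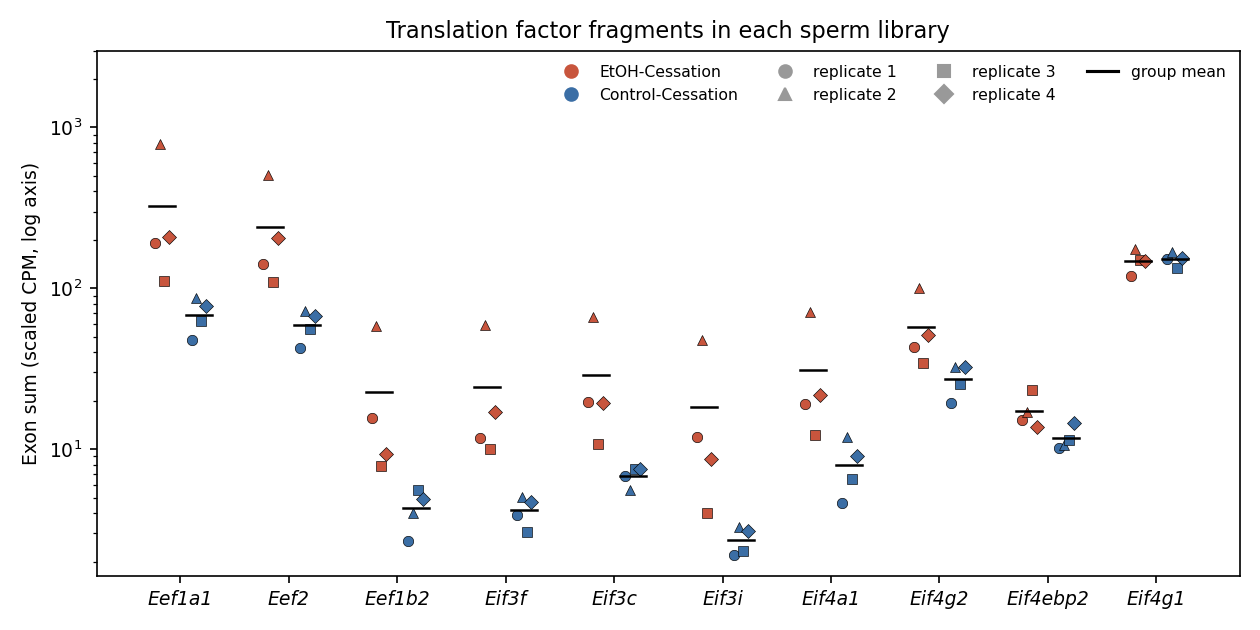
Exon sums of 10 translation factor genes in each library, in scaled CPM on a log axis, with EtOH-Cessation left of Control-Cessation for every gene, symbols for replicates and a line for each group's mean. EtOH replicate 2 is the highest point in 8 of the 9 genes left of Eif4g1, Eif4ebp2 is highest in EtOH replicate 3, and the points of Eif4g1 lie between 119 and 176 CPM in EtOH and between 133 and 168 CPM in Control.

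eIF3 is the largest initiation factor, a scaffold on the small ribosomal subunit that gathers the other factors. Its 14 genes summed to 124, 428, 80.4 and 128 CPM in EtOH replicates 1 to 4, against 43.3, 63, 53.7 and 59.8 CPM in Control replicates 1 to 4. Of 13 tested, 4 rose and none fell (unadjusted p under 0.05 in 10 genes, all of them higher, and 9 called higher by DESeq2). Over all exon sums 9.82% rose, 45.2% were higher at an unadjusted p under 0.05, and DESeq2 called 29.8% higher. Log2 fold changes of the 13 eIF3 genes had a median of 1.72. In 7 of the 14 the groups did not overlap, against 25.5% of all exon sums with every EtOH library above every Control library. Eif3f, a subunit with an MPN domain, had 11.8, 58.8, 10.1 and 17.1 CPM in EtOH replicates 1 to 4, against 3.9, 5.04, 3.04 and 4.66 CPM in Control replicates 1 to 4. The lowest EtOH library (10.1 CPM) lay well above the highest Control library (5.04 CPM), and the log2 fold change was 2.54 (SE 0.57, adjusted p = 0.0489).

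Its partner Eif3h, the other MPN domain subunit, had 5.96, 30.3, 6.2 and 8.81 CPM in EtOH replicates 1 to 4, against 0.974, 2.52, 2.34 and 3.36 CPM in Control replicates 1 to 4. These groups were also apart, with a log2 fold change of 2.46 (SE 0.59, adjusted p = 0.0489). The WD repeat subunit Eif3i had 11.9, 48, 4.02 and 8.64 CPM in EtOH replicates 1 to 4, against 2.19, 3.28, 2.34 and 3.11 CPM in Control replicates 1 to 4, and its log2 fold change of 2.72 (SE 0.67, adjusted p = 0.0489) was the highest of the 46. EtOH replicate 3 came within 1 CPM of the Control libraries for Eif3i.

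The core subunit Eif3c, which contacts eIF1 and eIF5 during start codon scanning, had 19.7, 66.4, 10.7 and 19.5 CPM in EtOH replicates 1 to 4, against 6.82, 5.55, 7.48 and 7.51 CPM in Control replicates 1 to 4 (log2 fold change 2.08, SE 0.53, adjusted p = 0.0489). Eif3a, the largest subunit, had 28.3 ± 25.6 CPM in EtOH and 9.56 ± 1.98 CPM in Control (SD, n = 4 each), but its EtOH replicate 3 (9.55 CPM) lay below Control replicate 2 (12.4 CPM) and it did not pass (adjusted p = 0.0826). The other tested subunits, Eif3b, Eif3d, Eif3e, Eif3g, Eif3j1, Eif3j2, Eif3l and Eif3m, had log2 fold changes of 0.58 (Eif3j1) to 1.81 (Eif3m) and did not pass. The loosely bound subunit eIF3j, made from the gene pair Eif3j1 and Eif3j2, and Eif3e were the 3 eIF3 genes below the median of all exon sums, at 0.58, 0.77 and 0.69. Eif3k was not tested.

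The eIF4 group, taken by gene name, includes the factors that recruit the mRNA. eIF4E binds the cap, eIF4G holds the complex together, and eIF4A unwinds the leader with eIF4B or eIF4H. None of its 10 tested genes passed in edgeR (7 were higher at an unadjusted p under 0.05, and DESeq2 called 5), 7 did not overlap between groups, and the median log2 fold change was 1.08. Over all exon sums 45.2% were higher at that p and DESeq2 called 29.8% higher. In 25.5% of them every EtOH library lay above every Control library, and the median was 0.86. Eif4a1, the main helicase, had 19, 71.6, 12.2 and 21.7 CPM in EtOH replicates 1 to 4, against 4.63, 11.8, 6.54 and 9.06 CPM in Control replicates 1 to 4. The groups of Eif4a1 were apart, though EtOH replicate 3 and Control replicate 2 nearly met, and the fit gave a log2 fold change of 1.95 (SE 0.56) that missed the threshold at an adjusted p of 0.0549. Its paralogue Eif4a2, at 11.5 ± 3.98 CPM in EtOH and 5.32 ± 0.64 CPM in Control (SD, n = 4 each), gave 1.10 (adjusted p = 0.0691). Reads that match both Eif4a1 and Eif4a2 could be split between them in a way the sources used here do not give.

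Eif4g1 had the lowest log2 fold change of the tested genes. It codes for the main eIF4G scaffold, and its exons held 119, 176, 149 and 147 CPM in EtOH replicates 1 to 4, against 153, 168, 133 and 154 CPM in Control replicates 1 to 4. The groups overlapped fully, with means of 148 ± 23.2 CPM in EtOH and 152 ± 14.6 CPM in Control (SD, n = 4 each), and the log2 fold change was -0.04 (SE 0.36, adjusted p = 0.962). This was the only value below 0 among the 46, while 1221 of all 6424 exon sums tested lay below 0. The Eif4g1 value ran from -0.81 to 0.45 over the alternatives, above 0 in 4 of them. Other translation factor genes also fell below 0 in some alternatives. With exon sums alone 38 of 49 tested lay above 0, with the exon class total as scale 40 of 46, and with the PO_EM pair alone 43 of 46. Eif4g2, the related factor of cap-independent initiation, had 43.1, 101, 34.5 and 51.3 CPM in EtOH replicates 1 to 4, against 19.2, 32.3, 25.2 and 32.6 CPM in Control replicates 1 to 4. Its groups did not overlap, and its log2 fold change was 1.07 (SE 0.43, adjusted p = 0.121). Whether Eif4g1 and Eif4g2 differ from each other in their change was not tested.

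Per kilobase of transcript, on the scale of CPM per kb, the levels can be set beside each other. In EtOH Eef1a1 came first at 181 ± 173, Eef2 next at 78.1 ± 59.2 and Eif4g1 after it at 27.1 ± 4.25 CPM per kb (SD, n = 4). In Control Eef1a1 came first at 38.3 ± 9.65, Eif4g1 next at 27.9 ± 2.67 and Eef2 after it at 19.3 ± 4.29 CPM per kb (SD, n = 4). Eif1, the start codon fidelity factor, held rank 4 in EtOH at 23.3 ± 14.9 CPM per kb and rank 5 in Control at 8.19 ± 1.26 CPM per kb (SD, n = 4 each). Eif4ebp2 held rank 8 in EtOH at 12.2 ± 2.96 CPM per kb and rank 4 in Control at 8.22 ± 1.36 CPM per kb (SD, n = 4 each). The SDs over libraries are wide in EtOH, but within each of the 4 EtOH libraries Eef1a1 lay above Eef2 and Eef2 above Eif4g1. In Control Eif4g1 lay above Eef2 in all 4 libraries and below Eef1a1 in 3 of 4. Eif1 lay above Eif4ebp2 in 3 of the 4 EtOH libraries and in 2 of the 4 Control libraries. Together Eef1a1, Eef2 and Eif4g1 held between 50.5% and 53.5% of all translation factor counts in the EtOH libraries and between 50% and 56% in the Control libraries.

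The counts are given exon by exon, which shows where along each transcript the fragments lie. In Eef1a1 all 8 exons held more in EtOH, with log2 ratios of the group means of 1.80 to 2.57 and most counts in exon 4 (1415 in EtOH and 186 in Control). In Eef2 all 14 exons did, with ratios of 1.60 to 2.59 and most counts in the 3′ exon 14 (848 in EtOH and 163 in Control). All 7 exons of Eif3c and all 16 exons of Eif4g2 with at least 40 counts also lay above 0, with ratios of 1.10 to 3.89 for Eif3c and 0.49 to 2.42 for Eif4g2. The minimum of 40 was set on both groups together, so an exon could reach it mainly through its EtOH counts. Exon 12 of Eif3c, with the ratio of 3.89, had 38 counts in EtOH and 2 in Control. For Eif3c and Eif4g2 the counts of exons above 0 therefore depend in part on that minimum. In Eif4g1, 13 of 26 such exons lay above 0 and the ratios ran from -0.63 to 1.70. No exon of a translation factor gene was called when exons were tested singly (60 tested, lowest adjusted p = 0.0525), and at an unadjusted p under 0.05 36 of the 60 were higher and 0 lower.

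**Figure D4:**
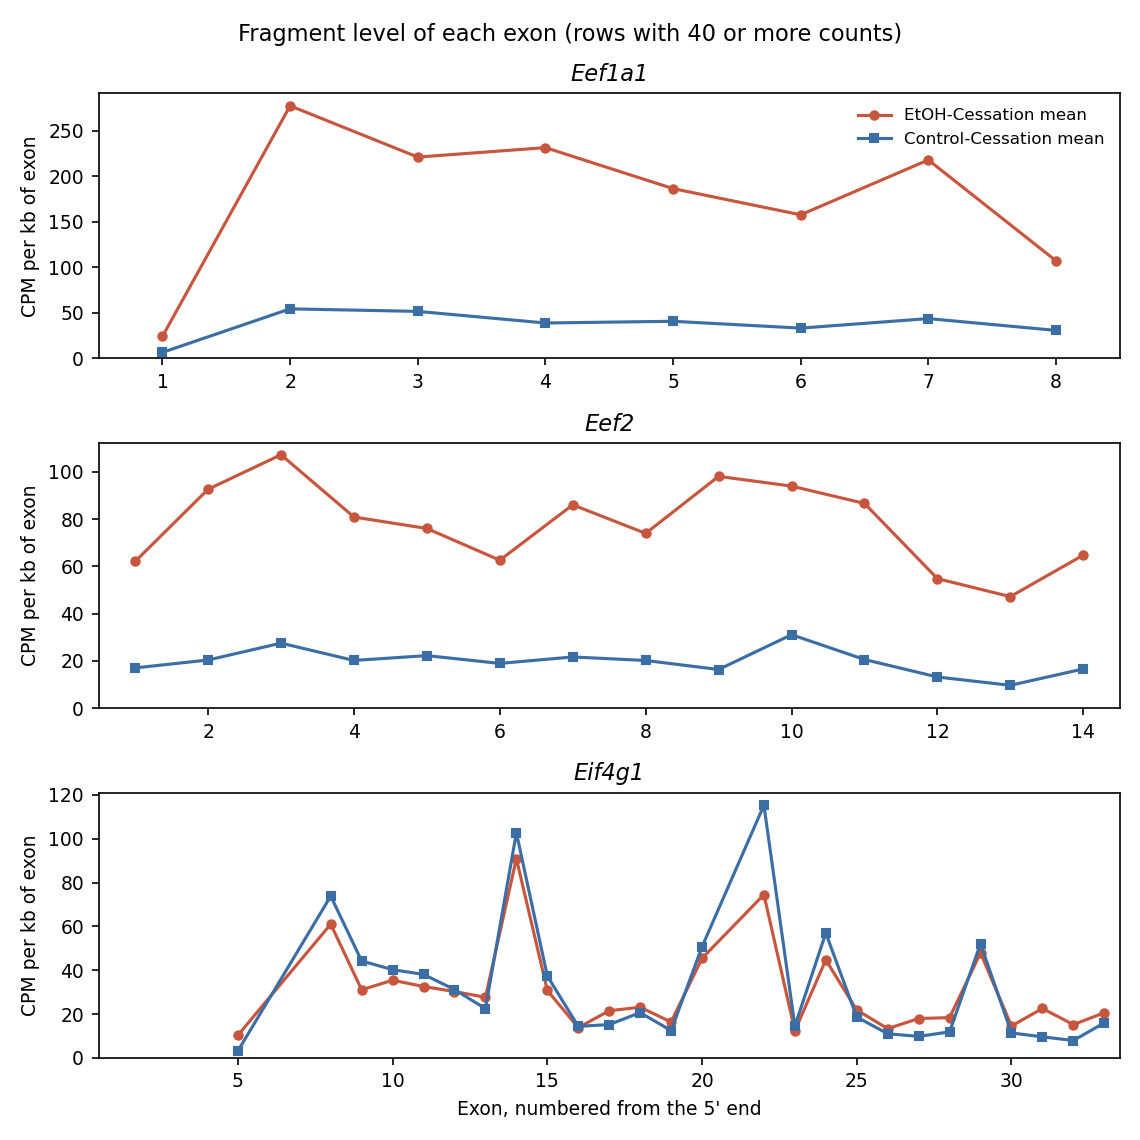
Mean level of each exon with at least 40 counts, in CPM per kb of exon, for Eef1a1, Eef2 and Eif4g1, with exons numbered from the 5′ end and a line for each group's mean. The EtOH-Cessation line lies above the Control-Cessation line at every exon of Eef1a1 and Eef2, and the lines cross repeatedly along Eif4g1, whose highest Control values are at exons 22 and 14.

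Fragments of Eif4g1 were concentrated in some of its exons. Exon 22 reached 74.5 CPM per kb in EtOH and 115 CPM per kb in Control, and exon 14 reached 90.9 CPM per kb in EtOH and 103 CPM per kb in Control, whereas exon 23 held 12.4 CPM per kb in EtOH and 14.5 CPM per kb in Control. Exon 22 had 40, 25, 63 and 53 counts in EtOH replicates 1 to 4, against 50, 49, 54 and 40 counts in Control replicates 1 to 4. The exon with most counts was the long exon 10, with 659 in EtOH and 530 in Control. Both exons with the highest Control level per length are wholly coding and are printed to show the stretches these fragments come from, as read from the GRCm38 genome (plus strand of chromosome 16) for the GENCODE M21 transcript that carries the same RefSeq identifier, since no source used here gives the build behind the counts.
Eif4g1 exon 22, chr16:20685511-20685613: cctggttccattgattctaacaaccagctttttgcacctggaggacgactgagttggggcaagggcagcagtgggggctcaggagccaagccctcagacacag
Eif4g1 exon 14, chr16:20681420-20681578: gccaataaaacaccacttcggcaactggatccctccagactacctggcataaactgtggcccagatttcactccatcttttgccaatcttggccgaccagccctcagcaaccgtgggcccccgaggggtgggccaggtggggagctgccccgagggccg
These exons are 103 and 159 bases long, with 57.3% and 61.6% G or C. Splitting the transcript before exon 8, a split chosen after the values were seen and so given with no test, exons 1 to 7 held 5.47 ± 3.8 CPM in EtOH and 2.57 ± 1.45 CPM in Control (117 and 41 counts), while exons 8 to 33 held 142 ± 19.8 CPM in EtOH and 149 ± 13.8 CPM in Control (SD, n = 4 each).

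The 3′ exon carries most of the untranslated tail. With counts pooled over the libraries of each group, its share of the counts was lower in EtOH for most genes. Over the 62 genes EtOH replicate 2 gave 11942 of the pooled counts, against 6295, 4199 and 6119 in EtOH replicates 1, 3 and 4. Over the 51 genes with at least 3 exons and 20 counts in each group, the pooled share of the 3′ exon was lower in EtOH for 38 and higher for 13, with medians of 19.5% in EtOH and 25.5% in Control. The median share of transcript length in that exon was 38.4%. Summed over the 62 genes without Eef1a1, Eef2 and Eif4g1, the 3′ exon held 31.2%, 19.8%, 36.4% and 29.2% of the counts in EtOH replicates 1 to 4, against 35.4%, 34.6%, 35.6% and 33.8% in Control replicates 1 to 4. EtOH replicate 2 was lowest, EtOH replicate 3 was above every Control library, and so the groups overlap. Over all 62 genes the shares were 21.7%, 16.3%, 24.4% and 21.1% in EtOH replicates 1 to 4, against 21.8%, 21.9%, 23.2% and 22% in Control replicates 1 to 4.

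The factors of start codon selection include eIF1 and eIF1A, which keep the scanning complex open, eIF5, which triggers GTP hydrolysis on eIF2, and eIF5B, which joins the large subunit. None of the 8 genes passed in edgeR (4 were higher at an unadjusted p under 0.05, and DESeq2 called Eif1), and their median log2 fold change was 0.93. Over all exon sums 45.2% were higher at that p, a share near 4 of 8. DESeq2 called 29.8% of all exon sums higher, and their median was 0.86. The 8 genes are Eif1, Eif1a, Eif1ad, Eif1ax, Eif1b, Eif5, Eif5b and Eif6. They were grouped by gene name, which assigns no role in start codon selection to Eif1ad or Eif6. Eif1 had 22.6, 59.7, 15.9 and 25.1 CPM in EtOH replicates 1 to 4, against 8.77, 11.6, 12.6 and 10.4 CPM in Control replicates 1 to 4. All EtOH libraries lay above the Control libraries, and the log2 fold change was 1.5 (SE 0.45, adjusted p = 0.0582). Eif5 had 19.5 ± 8.23 CPM in EtOH and 10 ± 3.17 CPM in Control (SD, n = 4 each), with EtOH replicate 1 (13.6 CPM) and Control replicate 3 (13.3 CPM) almost level. Eif5b had 12.3 ± 9.19 CPM in EtOH and 5.28 ± 1.2 CPM in Control (SD, n = 4 each) and overlapped between groups.

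eIF2 carries the initiator transfer RNA, and its 3 subunits are coded by Eif2s1, Eif2s2 and the gamma genes Eif2s3x and Eif2s3y on the X and Y chromosomes. All 4 were tested and none passed in edgeR, though all 4 were higher at an unadjusted p under 0.05 and DESeq2 called 3, with log2 fold changes of 1.22 to 1.53. Over all exon sums 45.2% were higher at that p, and DESeq2 called 29.8% higher. Eif2s1, the subunit whose phosphorylation stalls initiation, had 5.3 ± 2.39 CPM in EtOH and 2.02 ± 0.74 CPM in Control (SD, n = 4 each, adjusted p = 0.0664). Eif2s2, the beta subunit, had 8.42 ± 5.65 CPM in EtOH and 2.93 ± 1.23 CPM in Control (SD, n = 4 each, adjusted p = 0.0705), and neither of these genes overlapped between groups. Eif2s3x had 8.86, 27.2, 4.69 and 11.5 CPM in EtOH replicates 1 to 4, against 1.95, 5.04, 1.64 and 9.32 CPM in Control replicates 1 to 4, with overlap. Eif2s3y had 2.91, 8.3, 2.85 and 3.56 CPM in EtOH replicates 1 to 4, against 1.22, 2.02, 2.34 and 1.81 CPM in Control replicates 1 to 4, without overlap. Eif2a and Eif2d, factors of alternative initiator delivery, were not tested.

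eIF2B, the exchange factor that recharges eIF2 with GTP, was measured at low counts, and none of its 5 genes passed the filter on low counts. Summed, they had 8.03, 34.1, 5.53 and 9.14 CPM in EtOH replicates 1 to 4, against 2.19, 6.81, 7.48 and 6.47 CPM in Control replicates 1 to 4. EtOH replicate 3 lay below 3 of the Control libraries. Eif2b5, the catalytic subunit, averaged 4.83 ± 4.46 CPM in EtOH and 1.26 ± 0.922 CPM in Control, Eif2b2 3.55 ± 4.07 CPM in EtOH and 1.28 ± 0.855 CPM in Control, and Eif2b4 2.28 ± 2.09 CPM in EtOH and 1.49 ± 0.833 CPM in Control (SD, n = 4 each).

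The eIF2 kinases switch initiation off under stress. Eif2ak3 (PERK, the sensor of unfolded protein in the endoplasmic reticulum) had 5.54, 14.8, 2.68 and 9.31 CPM in EtOH replicates 1 to 4, against 2.19, 3.03, 2.1 and 4.4 CPM in Control replicates 1 to 4. EtOH replicate 3 fell among the Control values, and the gene did not pass (log2 fold change 1.45, adjusted p = 0.0824). Eif2ak2 (PKR, activated by double-stranded RNA) had 3.19 ± 1.87 CPM in EtOH and 2.15 ± 1.08 CPM in Control (SD, n = 4 each, log2 fold change 0.53, adjusted p = 0.521). Eif2ak1 (the heme-regulated kinase) was not tested but did not overlap, with 4.02, 8.08, 2.18 and 5.76 CPM in EtOH replicates 1 to 4, against 0.244, 1.76, 0.701 and 2.07 CPM in Control replicates 1 to 4. Eif2ak4 (GCN2, the sensor of uncharged transfer RNA) was also untested.

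The eIF4E binding proteins hold eIF4E away from eIF4G. Eif4ebp2 had 15.2, 17.1, 23.3 and 13.7 CPM in EtOH replicates 1 to 4, against 10.2, 10.6, 11.4 and 14.5 CPM in Control replicates 1 to 4. EtOH replicate 3 was its highest library, while most translation factor genes were highest in EtOH replicate 2, and its groups overlapped (log2 fold change 0.57, adjusted p = 0.291). Eif4enif1, the transporter of eIF4E, had 4.11 ± 2.01 CPM in EtOH and 2.16 ± 0.351 CPM in Control (SD, n = 4 each, adjusted p = 0.162). Eif4ebp1, at 1.4 ± 0.901 CPM in EtOH and 1.12 ± 0.508 CPM in Control (SD, n = 4 each), and Eif4ebp3 were untested. eIF5A, the factor with the modified lysine hypusine that relieves stalled ribosomes, is coded by Eif5a, which had 28.7 ± 21.4 CPM in EtOH and 10.7 ± 2.87 CPM in Control (SD, n = 4 each, log2 fold change 1.42, adjusted p = 0.0876). Its paralogue Eif5a2 had 1.19 ± 0.778 CPM in EtOH and 1.43 ± 0.711 CPM in Control (SD, n = 4 each), was untested, and is 1 of the 2 genes whose EtOH mean was not the higher.

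The highest library was the same for most genes. EtOH replicate 2 was the highest of all 8 libraries for 58 of the 62 genes, and its level was a median of 2.97 times the mean of the other EtOH libraries. EtOH replicate 3 was the lowest EtOH library for 41 genes, EtOH replicate 1 for 11, EtOH replicate 4 for 9 and EtOH replicate 2 for 1. No Control library was the highest for any gene. The shares of all exon sums with the same order are not given, so these counts cannot be set beside a background. Exon fragments as a class took 30.5% of the counts of EtOH replicate 2.

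Many mRNAs of the translation machinery, those of Eef1a1 and Eef2 among them, belong to the class whose transcripts begin with a cytosine followed by an unbroken run of pyrimidines (5′ terminal oligopyrimidine mRNAs). RefSeq start windows (GRCm38.p6) were matched for 49 of the 62 genes, 64 windows in all. They were searched on the transcript's strand for a start at C that goes on with C or T only for 5 or more bases. Of the 64 windows 2 matched, those of Eif3f and Eif2s3x, against 2.51% of all 32851 windows in the reference table. The 2 of 64 lie near that share. The 20 bases before and the 10 after the annotated start are printed for both, with the bases from the start on in capitals, and for the most abundant factors without a match. No match says only that no such run with a leading C is at this annotated start. Eef1a1 has pyrimidines from its annotated start on (ttccc) but begins with T.
Eif3f, chr7:108934395-108934424, plus strand: gctcttctgttctaggctctCTCTCTTTCT
Eif2s3x, chrX:94212642-94212671, minus strand: ggcggctgccgagcattttcCTTTTCTCTC
Eef1a1, chr9:78481715-78481744, minus strand: cgtgtgctggctccgccctcttcccgaggg
Eef2, chr10:81176611-81176640, plus strand: cgacctataaaaggccgggcgttgacgtca
Eif4g1, chr16:20672707-20672736, plus strand: cccggcgccagcgcagctccgccctctgcg
Eif3f rose in EtOH and Eif2s3x did not pass, at log2 fold changes of 2.54 and 1.53.

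Introns of the same genes, which took no part in choosing them, gave another picture. Of 19 intron sums tested, 0 rose and 1 fell, against 0.189% of all intron sums higher and 0.672% lower. At an unadjusted p under 0.05 the sum of Eif4a2 was higher and those of Eif5 and Eef1d lower, against 1.03% of all intron sums higher and 12.5% lower, and DESeq2 called the sum of Eif5 alone. The median log2 fold change was -0.24 for these introns and -0.33 for all 4762 intron sums. In 16 of the 17 genes with both sums tested the exon value was above the intron value, with medians of 1.15 for exons and -0.24 for introns. The exception was Eif4a2, at 1.10 for exons and 1.56 for introns. Over all genes tested the medians also lay apart, at 0.86 for exon sums and -0.33 for intron sums. The share of all genes with the exon value above the intron value is not given, so the 16 cannot be set beside a background.

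**Figure D5:**
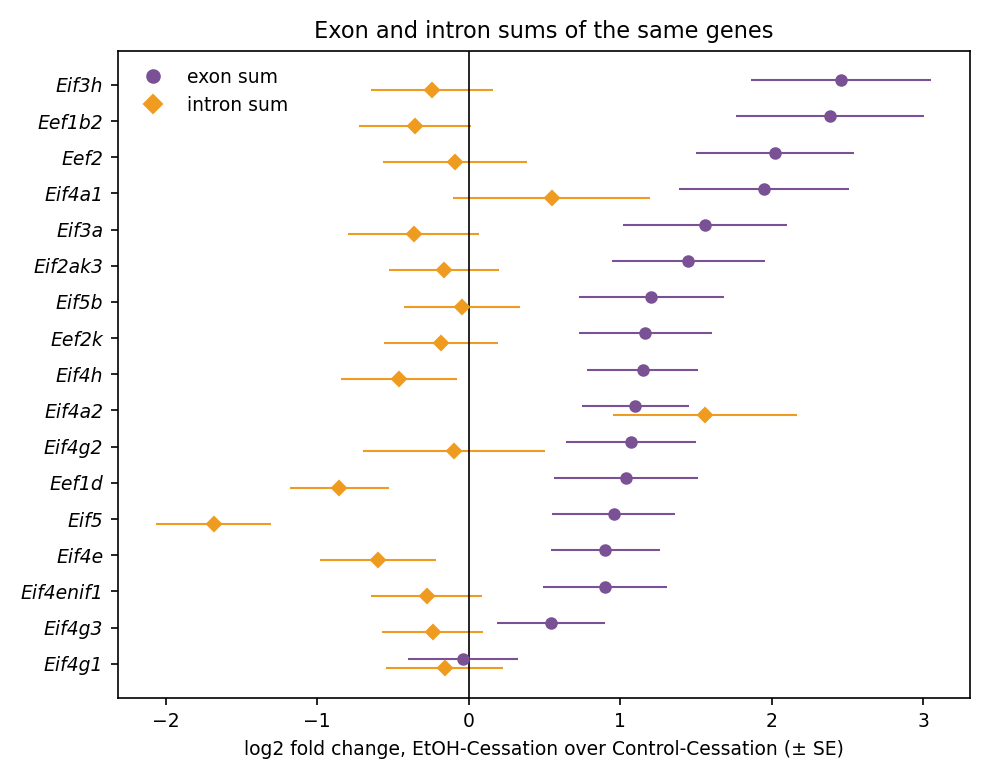
Log2 fold change (EtOH-Cessation over Control-Cessation) of the exon sum and the intron sum for the 17 translation factor genes with both tested, with bars of 1 SE on either side. The intron sums have a median of -0.24 and the exon sums 1.15, and the intron sum of Eif5 lies lowest at -1.68.

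The intron sum that fell was that of Eif5, at 4.57, 9.42, 9.72 and 5.93 CPM in EtOH replicates 1 to 4, against 17.8, 25.5, 26.6 and 25.1 CPM in Control replicates 1 to 4. Every EtOH library lay below every Control library, and the log2 fold change was -1.68 (SE 0.38, adjusted p = 0.0489), while the exon sum of Eif5 gave 0.96. Most of these counts lie in the intron that holds Snora28, a small nucleolar RNA (snoRNA) that guides pseudouridylation, with 25, 17, 29 and 21 counts in EtOH replicates 1 to 4, against 47, 87, 105 and 81 counts in Control replicates 1 to 4. The call was lost with median of ratios (log2 fold change -1.71, adjusted p = 0.0654) and with library size alone (-1.41, adjusted p = 0.0583). It was also lost with the piRNA cluster total as scale (-1.25, adjusted p = 0.271) and with no filter (-1.51, adjusted p = 0.219). A mean count of at least 10 (-1.76, adjusted p = 0.0599) and the PO_EM pair alone (-1.73, adjusted p = 0.11) lost it as well. Leaving out EtOH replicate 1, EtOH replicate 4 or any Control library lost it too (adjusted p 0.0532 to 0.153), with log2 fold changes of -1.94 to -1.49.

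Other abundant introns of translation factor genes also hold annotated snoRNAs. The intron of Eif4g2 with Gm23262 had the most counts. It is listed under separate transcripts with 5942 and 5939 counts, and both enter the intron sum of Eif4g2. The intron of Eif4a1 with Gm25835 had 851, 2309, 366 and 240 counts in EtOH replicates 1 to 4, against 418, 513, 402 and 508 counts in Control replicates 1 to 4. The intron of Eif4a2 with Snora81 had 1500, 137, 350 and 83 counts in EtOH replicates 1 to 4, against 32, 38, 26 and 88 counts in Control replicates 1 to 4. EtOH replicate 1 alone held most of them and EtOH replicate 4 lay below Control replicate 4, and the intron sum of Eif4a2 did not pass (adjusted p = 0.11). The intron of Eef2 with Snord37 had 534, 754, 358 and 236 counts in EtOH replicates 1 to 4, against 312, 484, 403 and 281 counts in Control replicates 1 to 4, and the intron sum of Eef2 gave a log2 fold change of -0.09, beside 2.02 for its exons. The introns of Eif4g1 gave -0.16, beside -0.04 for its exons.

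Other genes of the translation machinery were counted in the same fit. Of 83 cytosolic ribosomal protein genes tested (91 in the list), 53 rose and none fell, against 9.82% and 0.218% of all exon sums. The 83 genes had a median log2 fold change of 2.20, beside 0.86 for all exon sums. Wars and Sars, the tryptophan and serine transfer RNA synthetases, were the 2 of 13 cytosolic synthetase genes tested that rose. The list median was 1.58 and 12 were higher at an unadjusted p under 0.05, against 45.2% of all exon sums. Wars had 159 ± 92.1 CPM in EtOH and 37.3 ± 12.1 CPM in Control (SD, n = 4 each, log2 fold change 2.09, adjusted p = 0.0489). Among the enzymes that make hypusine and diphthamide, the modified residues of eIF5A and eEF2, only Dohh was abundant enough to test. Dohh, the hydroxylase of the hypusine step, rose, with 4.02, 18.6, 3.52 and 7.62 CPM in EtOH replicates 1 to 4, against 0.487, 0.504, 1.4 and 2.59 CPM in Control replicates 1 to 4 (log2 fold change 2.73, adjusted p = 0.0489).

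The remaining lists had no call in edgeR. At an unadjusted p under 0.05 they had 2 (termination and recycling), 6 (poly(A) binding and initiation helpers), 9 (translation control) and 1 (mitochondrial factors) higher, and DESeq2 called 2, 2, 5 and 1 of them in that order. Among all exon sums 45.2% were higher at that p, and DESeq2 called 29.8% higher. Over 4 of the 6 genes of termination and recycling the median log2 fold change was 0.90, with Gspt1 (eRF3a) at 1.48 and Etf1 (eRF1) at 0.88. Over 13 of the 16 poly(A) binding and initiation helper genes it was 0.81, and the nuclear poly(A) binding protein gene Pabpn1, at 25.1 ± 9.22 CPM in EtOH and 32.7 ± 4.1 CPM in Control (SD, n = 4 each), lay at -0.38. Over 13 of the 18 translation control genes it was 1.07, with Ppp1r15b, a regulatory subunit of the eIF2 phosphatase, at 1.03 and Gcn1l1, the partner of GCN2, at 1.42. Over 3 of the 9 mitochondrial translation factors it was 0.84, with Tufm, the mitochondrial elongation factor Tu, at 0.84. The 56 calls over all these lists moved with the fit as those of the translation factors did, to 94 with DESeq2, 0 with median of ratios, 34 without EtOH replicate 2, 105 without EtOH replicate 3 and 0 without any other library.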

How the data were processed

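Per the labels, the 8 small RNA libraries come from sperm and only the first read was kept. Per the submitters' processing notes, cutadapt removed adapters. The authors deposited raw counts for each annotated feature, as whole numbers without normalization. No source used here gives the aligner, the build, the annotation or how reads with several matches were assigned. Groups follow the treatment label, and each table column was assigned through the sample title.

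Exon rows were summed by gene symbol, intron rows likewise, and every other feature was kept as deposited. The fit used edgeR 4.0.16 under R 4.3.3: filterByExpr at its defaults (a count of 10, a total of 15), trimmed mean of M values (TMM) scaling, and the quasi-likelihood F test, with p-values adjusted by Benjamini-Hochberg across the 13808 features kept and called below 0.05. Fold changes are EtOH over Control, on the log2 scale, and CPM use the TMM-scaled totals unless the exon class is named. Levels per length and exon numbers come from GENCODE M21 transcripts, matched by RefSeq identifier for all 62 genes. Exon numbers in the table were read along the genome: for 24 of 26 minus-strand genes that order gave the higher rank correlation of counts with exon length. Overlapping transcripts can count a read more than once, so levels per length use 1 transcript.

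The genes, the lists and the tests were chosen with earlier results of these data known. Named genes are those past the threshold, in each role the 3 with most counts and the 1 with lowest p, set paralogue pairs, and in each list the 2 with most counts and the 1 with lowest p; Eif3j1, Eif3j2, Eif3e, Eif3m, Sars, the marker genes named and the introns of Eif5, Eif4a2, Eef2 and Eif4g1 were named after their values were seen. Alternatives were other scalings (median of ratios, library size, piRNA cluster total, exon class total), DESeq2 1.42.0, voom with quality weights in limma 3.58.1, other filters, exon sums alone, exons kept apart, 1 transcript per gene, each library left out, and the EtOH libraries of either sample code alone. The steps were tested on simulated counts for this comparison with 200 of 13808 features changed: they recovered 0%, 44%, 98% and 100% of the features given a 2-, 4-, 8- and 16-fold change, and 11 of 132 calls were false. The simulated features varied independently, with equal numbers raised and lowered, and no library shifted many features together, unlike EtOH replicate 2 here. These shares therefore do not cover calls that rest on such a shared shift.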

Additional observations from a re-analysis of the deposited data

Results flagged for a closer look

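In 13 of the 74 groups of 4 libraries examined, the most extreme library lay apart from the nearest of the others by more than Dixon's 95% critical value, where chance marks about 1 group in 20. In 12 of them EtOH replicate 2 was high, namely the summed level of the 62 genes (2747 CPM) and the exon sums of Eef1a1 (784 CPM), Eef1b2 (58.1 CPM), Eef1d (17.1 CPM), Eif2b2 (9.65 CPM), Eif2b4 (5.39 CPM), Eif2s2 (16.8 CPM), Eif2s3y (8.3 CPM), Eif3c (66.4 CPM), Eif3f (58.8 CPM), Eif3h (30.3 CPM) and Eif4a1 (71.6 CPM). The remaining group is Eif5a2, where EtOH replicate 3 was high (2.35 CPM). The same EtOH replicate 2 had the lowest total count and the highest share of exon fragments, and these values are not independent of each other because they share that library.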

How the results depend on the processing

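No translation factor gene was called lower under any alternative run, and 403 of 540 values of named genes kept their direction and side of the threshold, 95 lost their call, 34 gained one and 8, none of them called in either fit, changed sign. The log2 fold change of Eif2ak2 became -0.34 with exon sums alone, -0.063 with the PO_EM pair alone and -0.10 with the exon class total, and that of Eif4ebp2 became -0.13 with exon sums alone. The 7 higher calls became 0 with median of ratios, library size alone, the piRNA cluster total, a mean count of at least 10, exon sums alone, exons kept apart, the PO_EM pair alone and, chosen after seeing the data, the exon class total as scale. They became 24 with DESeq2, 14 with voom, 14 with no filter and 27 with the PO_M21 pair alone, and ranged from 0 to 27 with each library left out. Of all exon sums 12.9% were called higher with voom and 7.17% with no filter, beside the DESeq2 and PO_M21 shares given above. The intron calls (1) became 0 with median of ratios, library size alone, the piRNA total, no filter, the mean count and the PO_EM pair, 2 with the PO_M21 pair, and 0 to 1 with each library left out. The calls over other translation genes (56) became 0 with median of ratios, library size alone, the piRNA total, the mean count, the PO_EM pair, the exon class total and exons kept apart, 94 with DESeq2, 89 with no filter, 3 with exon sums alone, 107 with the PO_M21 pair, and 0 to 105 with each library left out. The cause was not tested. Library size alone moves the median of all features to a log2 fold change of 0.25, the piRNA total to 0.32 and the exon class total to -0.43, from 0.03 as reported, and the median of the translation factor genes to 1.64, 1.92 and 0.56. With exon sums alone the medians are 0.45 for these genes and 0.04 for all. Eif4g1 ranges from -0.81 to 0.45, and lay above 0 with library size alone (0.25), the piRNA total (0.45), no filter (0.15) and without EtOH replicate 1 (0.061; -0.22 to 0.061 with each library left out). The log2 difference of the summed level was 1.16, and every alternative stayed within its pooled SD of 0.62. No paired analysis was possible because the labels carry no shared replicate numbers.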
